A study of Rattus norvegicus with 24 samples.

Results

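Chaperones are the proteins that fold other proteins, keep them from clumping and hand the damaged ones over for destruction. The set described here holds 47 genes chosen by name: the Hsp70 and Hsp110 proteins of the cytosol, Hsp90 and its helpers, the J-proteins that drive Hsp70, the Hsp70 partners Bag3 and Stub1, the ring-shaped chaperonin CCT, the mitochondrial chaperones, and the folding machinery of the endoplasmic reticulum (ER). A member counted as measured where a probe set (a group of short probes read out as 1 value) was annotated with that gene alone, and its probe set of highest mean signal was used. This gave values for 45 members, and all 45 passed the filter on dim signals, among 9076 genes tested in the study. The constitutive Hsp70 gene Hspa8 and the stress-responsive Hsp90 gene Hsp90aa1 appeared only on probe sets annotated with several genes and were not measured.

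The RNA came from microdissected CA1, the hippocampal field whose pyramidal neurons are needed for spatial memory, of male Long-Evans rats that received no treatment. The aged impaired group (8 arrays) and the aged unimpaired group (6 arrays) were 24 to 26 months old, and the young group (9 arrays) was 6 months old. Aged rats were sorted by how closely they searched for the hidden platform of a Morris water maze: those that scored like young rats were called unimpaired and those that scored worse were called impaired. The labels call each array a biological replicate. Dissected tissue holds many cell types, so fewer cells of a type and less RNA per cell cannot be told apart in any value below. All signals are on a log2 scale, so a difference of 1 is a doubling, and signals of different genes are not set against each other because each probe set binds with its own strength.

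Hsp70 proteins clasp and release unfolded stretches of protein in a cycle powered by ATP: J-proteins deliver the client and start the clasp, and nucleotide exchange factors end it. Clients that need a late finishing step pass to Hsp90, and actin and tubulin fold inside CCT. Cells adjust this machinery through separate circuits: heat shock factor HSF1 switches on the cytosolic and mitochondrial chaperones, and the unfolded protein response (UPR), through ATF6, XBP1 and PERK, switches on those of the ER. Neurons do not divide and cannot dilute misfolded protein, which is why these systems are studied in the ageing brain.

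Each circuit has its own DNA element, and the stretches that carry them are shown because the members of each circuit are described apart. RefSeq promoter windows of the rat assembly GRCr8 were searched on both strands over the 250 bases before the start of each gene, and 40 of the 45 measured members had such a window. The ER stress element, read as CCAAT and CCACG with 9 bases between them, is the sequence through which ATF6 acts. It occurred in 5 of the 40 members, against 21 of 27457 genes (0.0765%), and the 5 were among the 10 ER members with a window. Stretches of 4 of them are written 5′ to 3′ on the strand of the gene, with the element in capitals. Hsp90b1 carries 2 copies, 1 of them in reverse, and Calr carries its only copy in reverse.
Hspa5, chr3:38452963-38453001, plus strand: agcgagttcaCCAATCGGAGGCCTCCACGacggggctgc
Calr, chr19:40213125-40213163, plus strand: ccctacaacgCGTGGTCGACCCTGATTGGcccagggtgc
Hsp90b1, chr7:23012337-23012479, minus strand: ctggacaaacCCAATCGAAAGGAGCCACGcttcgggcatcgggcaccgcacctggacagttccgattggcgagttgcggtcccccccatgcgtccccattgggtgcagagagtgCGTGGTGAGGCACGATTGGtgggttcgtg
Dnajc3, chr15:102432524-102432562, plus strand: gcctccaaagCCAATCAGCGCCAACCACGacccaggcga
The heat shock element is built from GAA and its mirror TTC, set head to head or tail to tail across 2 bases. Runs of 3 such units were found in 3 of the 40 members, against 182 of 27457 genes (0.663%). Hspd1 and Hspe1, which encode the chamber and lid of the mitochondrial chaperonin, lie back to back and share 1 stretch, printed once from each strand. Capitals mark the units.
Hsph1, chr12:10427322-10427354, plus strand: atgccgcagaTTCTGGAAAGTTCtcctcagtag
Hspe1, chr9:64084252-64084289, plus strand: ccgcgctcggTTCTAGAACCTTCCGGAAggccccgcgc
Hspd1, chr9:64084252-64084287, minus strand: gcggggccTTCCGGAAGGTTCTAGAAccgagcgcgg
Pairs of units, which also occur within the longer runs, were present in 13 of the 40 members and in 14.3% of all genes, and in 0 of the 10 ER members. A match describes these letters only. Pdia4, described with Hspa5 below, had a window without the ER stress element.

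Over all probe sets the 23 arrays were alike in overall signal, with medians between 4.20 and 4.28. Over the genes tested they differed more, with medians from 8.30 in impaired replicate 8 to 8.56 in impaired replicate 5. The 3 arrays least like the rest were impaired replicates 7 and 8 and young replicate 5, with median correlations of 0.9895, 0.9899 and 0.9905 with the other arrays. The log2 excess of 3 prime over 5 prime signal in control transcripts, which grows as RNA breaks down, ranged from 1.15 to 1.49 in impaired, 1.32 to 1.47 in unimpaired and 1.23 to 1.55 in young arrays. Markers of CA1 pyramidal neurons were present (7 of 8 tested), 0 of them were called in any comparison, and their summed linear signal was 24810 to 31730 in impaired, 27640 to 33520 in unimpaired and 25570 to 33120 in young arrays. Of 7 tested microglial markers, 5 were called higher in impaired and 2 in unimpaired than in young CA1, with sums of 7470 to 9786, 7367 to 9222 and 5815 to 7495 in impaired, unimpaired and young arrays. Of 7 astrocyte markers, 2 and 1 were called higher in the impaired and unimpaired groups, and the choroid plexus markers Folr1, Kl and Kcnj13 were dim. Ttr, the 1 choroid plexus marker tested, had linear signals of 78.58 to 723.8 in impaired, 26.64 to 221.3 in unimpaired and 51.77 to 724.5 in young arrays, with an impaired minus unimpaired difference of 0.63 (limma adjusted p = 0.857). Of the neighbouring fields, 5 CA3 and CA2 markers and 2 genes listed for dentate granule cells were tested, and 0 were called in any comparison. Impaired minus unimpaired values of the CA3 and CA2 markers ran from -0.06 (Bok) to 0.37 (Pcp4), with a median of 0.15. Prox1 and Calb1, the 2 listed for dentate granule cells, differed by 0.67 and -0.21 (limma unadjusted p = 0.0128 and 0.0251, adjusted p = 0.632 and 0.651). Whether the Calb1 signal came from dentate cells was not tested. The part of cell mixture in the results below was not tested.

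Both calls of the set fell among the ER chaperones. Hspa5 (BiP), the Hsp70 of the ER, which holds the UPR sensors inactive until misfolded protein draws it away, and Pdia4 (ERp72), which forms and reshuffles disulfide bonds, fell in aged impaired rats relative to young rats. They were 2 of the 45 measured members (4.44%) called lower at an adjusted p under 0.05 (limma, Benjamini-Hochberg over all genes), against 0.716% of all genes called lower and 3.8% called in either direction. No member was called higher, against 3.09% of all genes.

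Hspa5 ranged from 11.69 through a median of 11.86 to 12.10 in impaired arrays, from 12.00 through 12.10 to 12.20 in unimpaired arrays, and from 11.84 through 12.13 to 12.33 in young arrays. All 8 impaired arrays lay below the young median and 4 lay below the lowest young array, so the groups overlapped. The means were 11.87 ± 0.13 in impaired (SD, n = 8), 12.10 ± 0.07 in unimpaired (SD, n = 6) and 12.11 ± 0.19 in young rats (SD, n = 9). The impaired mean was 0.845 times the young level, a log2 difference of -0.24 ± 0.07 (SE; limma adjusted p = 0.0484). The unimpaired mean differed from the young one by -0.01 ± 0.07 (adjusted p = 0.986).

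Pdia4 ranged from 7.64 through 7.97 to 8.28 in impaired arrays, from 8.08 through 8.09 to 8.28 in unimpaired arrays, and from 7.87 through 8.40 to 8.71 in young arrays. Here all impaired and all unimpaired arrays lay below the young median, and 3 of the 8 impaired arrays lay below every young array. Means were 7.97 ± 0.24, 8.14 ± 0.08 and 8.33 ± 0.26 in impaired, unimpaired and young rats (SD, n = 8, 6 and 9). The impaired level was 0.775 times the young level, a log2 difference of -0.37 ± 0.10 (limma adjusted p = 0.0447), and the unimpaired difference was -0.20 ± 0.11 (adjusted p = 0.608).

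Both calls stood close to the threshold. Over fits that left out each of the 23 arrays in turn, the Hspa5 difference stayed between -0.28 and -0.22 with adjusted p from 0.0178 to 0.108, and was called only without impaired replicates 2 or 4 or young replicates 1, 5 or 7, so that 18 fits lost it. The Pdia4 difference stayed between -0.43 and -0.32 with adjusted p from 0.0123 to 0.0974, and was called only without those same arrays or impaired replicate 7, so that 17 fits lost it. Both calls were lost with no filter on dim probe sets (adjusted p = 0.0717 for Hspa5 and 0.077 for Pdia4), with every probe set tested on its own (0.0596 and 0.0561), with only the groups compared in the fit (0.111 and 0.107) and with the replicate number as a block (0.169 and 0.133), and that of Hspa5 also with array weights (0.0534). They were kept without the 3 least similar arrays, at -0.28 (adjusted p = 0.0458) for Hspa5 and -0.42 (adjusted p = 0.04) for Pdia4.

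**Figure D1:**
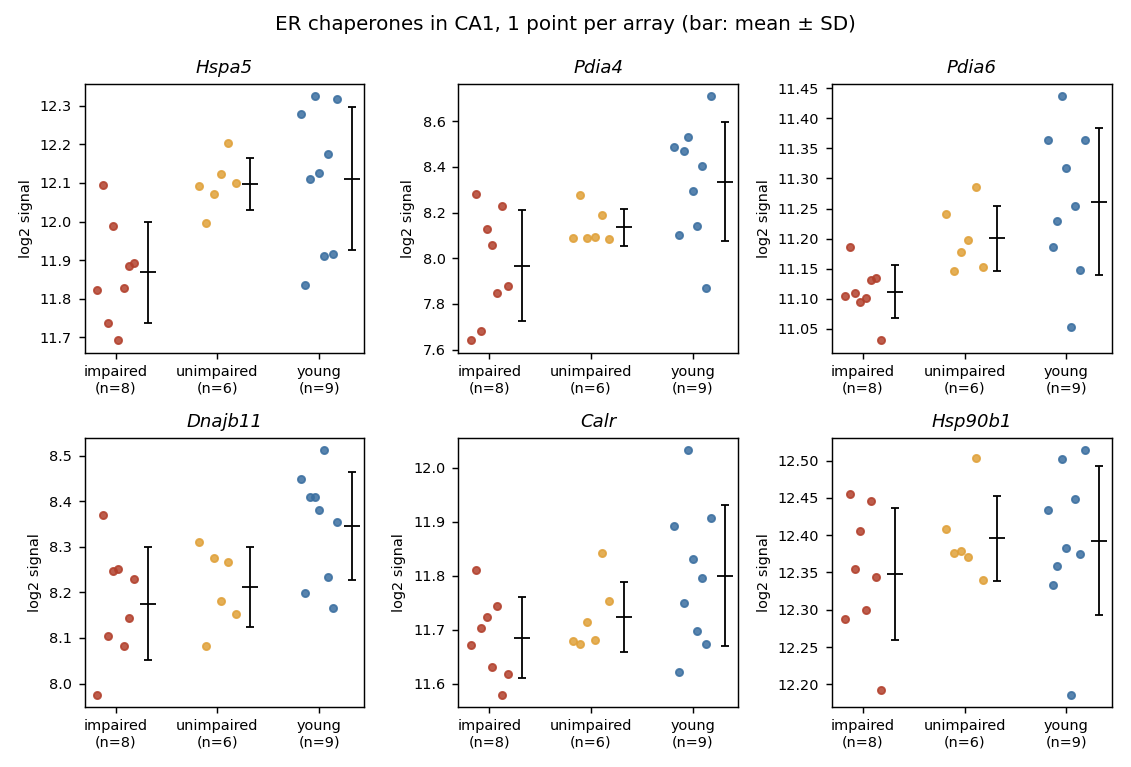
Log2 signal of 6 ER chaperones, 1 point per array, for aged impaired (n = 8), aged unimpaired (n = 6) and young (n = 9) rats; bars give the mean and SD. The impaired points of Hspa5, Pdia4 and Pdia6 all lie below the young median, while the Hsp90b1 points of the 3 groups overlap.

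The ER members Pdia6, Dnajb11 and Calr leaned the same way without passing the test. Pdia6, another disulfide isomerase, ranged from 11.03 through 11.11 to 11.19 in impaired arrays, 11.15 through 11.19 to 11.29 in unimpaired arrays and 11.05 through 11.25 to 11.44 in young arrays. The 8 impaired arrays kept within a narrow band, all below the young median and 7 of them below every unimpaired array. The impaired minus young difference was -0.15 ± 0.04 (limma adjusted p = 0.0617), and it passed the threshold when arrays were centred on their medians (-0.17, adjusted p = 0.012) and without the 3 least similar arrays (-0.17, adjusted p = 0.0311).

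Dnajb11 (ERdj3), the J-protein that loads clients onto BiP, was lower than young by a similar amount in both aged groups. It ranged from 7.98 through 8.19 to 8.37 in impaired arrays, 8.08 through 8.22 to 8.31 in unimpaired arrays and 8.17 through 8.38 to 8.51 in young arrays. All 14 aged arrays lay below the young median. The differences from young were -0.17 ± 0.06 in impaired (limma adjusted p = 0.0968) and -0.13 ± 0.06 in unimpaired rats (adjusted p = 0.451). Calr (calreticulin), a calcium store and sugar-binding chaperone, differed from young by -0.11 ± 0.05 in impaired (adjusted p = 0.243) and -0.08 ± 0.05 in unimpaired rats (adjusted p = 0.724).

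The remaining ER members other than Hyou1 gave little or no difference. Hsp90b1 (GRP94), the Hsp90 of the ER, ranged from 12.19 through 12.35 to 12.46 in impaired arrays, 12.34 through 12.38 to 12.50 in unimpaired arrays and 12.19 through 12.38 to 12.51 in young arrays. Its impaired minus young difference was -0.04 ± 0.04 (limma adjusted p = 0.688). Canx (calnexin, the membrane-bound partner of calreticulin) differed by 0.02 ± 0.04, Pdia3 (the isomerase that works with both) by 0.01 ± 0.07, Dnajb9 (ERdj4) by 0.02 ± 0.07 and Hspa13 by 0.06 ± 0.04. Dnajc3 (p58IPK, an inhibitor of the sensor PERK) differed by -0.07 ± 0.13. Other probe sets of Canx gave impaired minus young differences of 0.13 ± 0.07 and 0.09 ± 0.05. Hyou1, which varied widely within groups, differed from young by 0.16 ± 0.50 in impaired and 0.54 ± 0.54 in unimpaired rats. Across the 12 ER members the impaired minus young median was -0.058, against 0.0079 over all genes, and 7 of the 12 values were below 0.

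**Figure D2:**
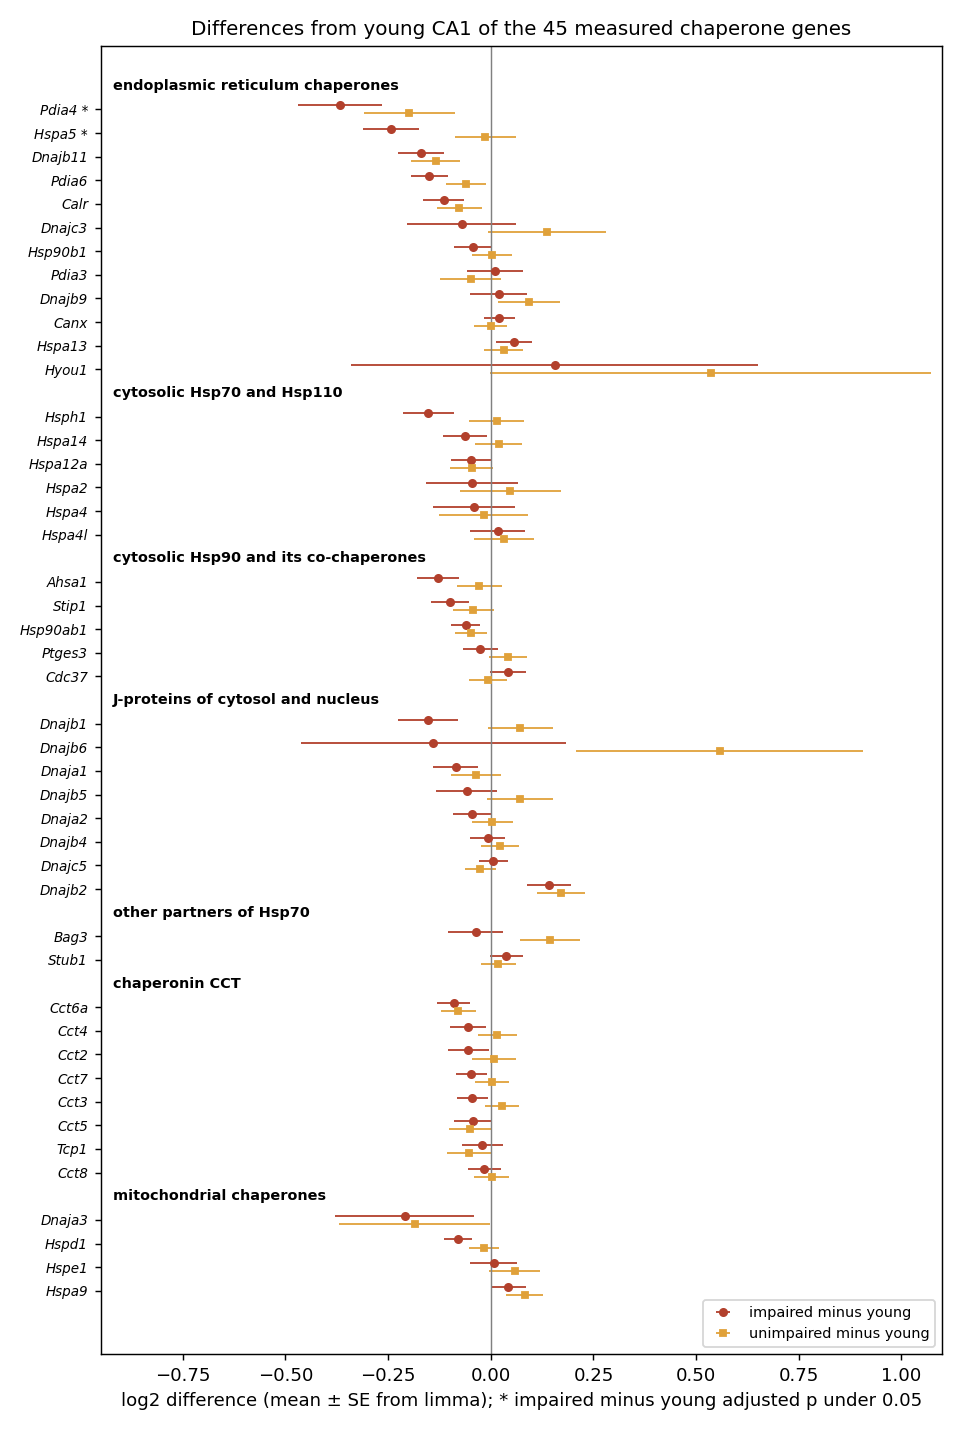
Log2 difference from young rats (mean and SE from limma) of the 45 measured members, grouped by role, for impaired (circles) and unimpaired rats (squares). Asterisks mark the 2 members with an adjusted p under 0.05, Hspa5 and Pdia4, both in impaired rats; the widest bars belong to Hyou1 and Dnajb6.

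Among cytosolic Hsp70 and Hsp110 members, the clearest value was that of Hsph1 (Hsp105), an Hsp110 protein that acts as the exchange factor of Hsp70. It ranged from 10.61 through 10.91 to 11.02 in impaired arrays, 10.80 through 11.04 to 11.33 in unimpaired arrays and 10.92 through 11.01 to 11.21 in young arrays. The impaired arrays were low, with 5 of 8 below every young array, but impaired replicate 7 set the lowest value by itself. The impaired minus young difference was -0.15 ± 0.06 (limma adjusted p = 0.204), and -0.12 (adjusted p = 0.307) without the 3 least similar arrays. Of the other 5 measured members of this family, 4 had values below 0, among them the ribosome-associated Hspa14 (-0.06 ± 0.05) and the distant relative Hspa12a (-0.05 ± 0.05), and none of the 5 passed even an unadjusted p of 0.05.

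Hsp90 and its co-chaperones had no call. Hsp90ab1, the constitutive cytosolic Hsp90, stood at 13.48 through 13.67 to 13.70 in impaired, 13.55 through 13.66 to 13.70 in unimpaired and 13.63 through 13.68 to 13.81 in young arrays. Its impaired minus young difference was -0.06 ± 0.04 (limma adjusted p = 0.42). Ahsa1, which speeds up the ATPase of Hsp90, ranged from 10.16 through 10.35 to 10.52 in impaired, 10.33 through 10.47 to 10.53 in unimpaired and 10.31 through 10.48 to 10.62 in young arrays. Its impaired minus young difference of -0.13 ± 0.05 (adjusted p = 0.194) passed the threshold once arrays were centred on their medians (-0.15, adjusted p = 0.0284). Stip1 (Hop), the bridge between Hsp70 and Hsp90, differed by -0.10 ± 0.05 (adjusted p = 0.276), and Ptges3 (p23) by -0.03 ± 0.04 (adjusted p = 0.837).

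The J-proteins of the cytosol split. Dnajb1 (Hsp40), the stress-inducible partner of Hsp70, ranged from 9.92 through 10.36 to 10.44 in impaired arrays, 10.35 through 10.52 to 10.62 in unimpaired arrays and 10.26 through 10.40 to 10.77 in young arrays. Impaired replicates 7 and 8, at 9.92 and 10.11, lay apart from the other 6 impaired arrays, which stood between 10.35 and 10.44. The impaired minus young difference of -0.15 ± 0.07 (limma adjusted p = 0.295) was -0.067 (adjusted p = 0.616) without the 3 least similar arrays.

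Dnajb2, a neuron-enriched J-protein that carries ubiquitin-binding motifs and passes clients to the proteasome, was the 1 member higher than young at an unadjusted p under 0.05 in each aged group. It ranged from 10.40 through 10.59 to 10.78 in impaired, 10.45 through 10.66 to 10.75 in unimpaired and 10.30 through 10.46 to 10.60 in young arrays. In each aged group 4 arrays exceeded every young array. The differences from young were 0.14 ± 0.05 in impaired (limma adjusted p = 0.168), 0.17 ± 0.06 in unimpaired (adjusted p = 0.235) and 0.15 ± 0.05 over all 14 aged rats (adjusted p = 0.0734). The general J-protein Dnaja1 differed by -0.09 ± 0.06 in impaired rats, and Dnajc5, the cysteine string protein of synaptic vesicles, by 0.0065 ± 0.04 in impaired and -0.025 ± 0.04 in unimpaired rats.

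**Figure D3:**
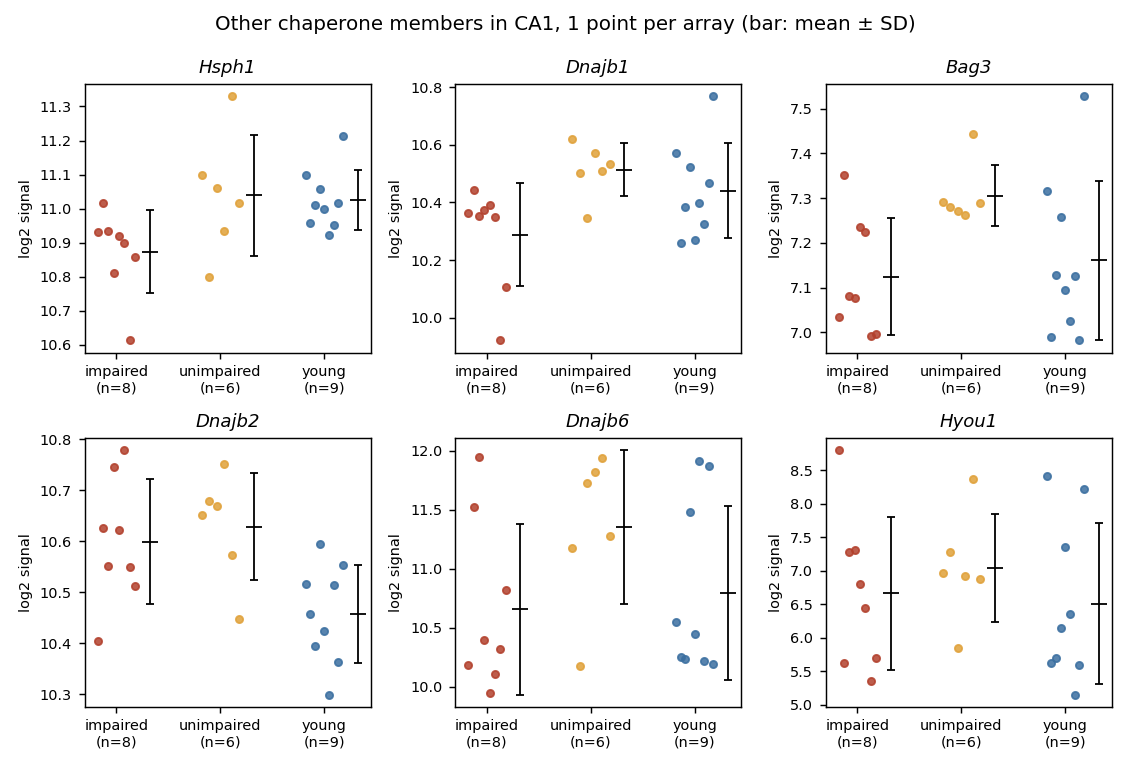
Log2 signal of 6 members outside the ER calls, 1 point per array with the mean and SD of aged impaired (n = 8), aged unimpaired (n = 6) and young (n = 9) rats. Dnajb1 shows 2 low impaired arrays, Dnajb2 sits higher in both aged groups, and Dnajb6 and Hyou1 spread over 2.00 and 3.65 log2 units.

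Of the other partners of Hsp70, Bag3, an exchange factor that routes clients to autophagy, ranged from 6.99 through 7.08 to 7.35 in impaired arrays, 7.26 through 7.28 to 7.44 in unimpaired arrays and 6.98 through 7.13 to 7.53 in young arrays. The unimpaired arrays were tightly grouped and all lay above the young median, with a difference from young of 0.15 ± 0.07 (limma adjusted p = 0.535). Stub1 (CHIP), the ubiquitin ligase that tags Hsp70 clients, differed from young by 0.04 ± 0.04 in impaired and 0.02 ± 0.04 in unimpaired rats.

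All 8 CCT subunits had impaired minus young values below 0, against 46.4% of all genes, from -0.091 for Cct6a to -0.016 for Cct8. Of these 0 were called (smallest limma adjusted p = 0.235). Without the 3 least similar arrays 7 of 8 were below 0, against 40% of all genes. Another probe set of Cct8 gave 0.05 ± 0.06. Cct6a ranged from 10.86 through 10.97 to 11.12 in impaired arrays, 10.97 through 10.98 to 11.04 in unimpaired arrays and 10.99 through 11.08 to 11.21 in young arrays, with 5 impaired and 4 unimpaired arrays below every young array. The subunits are measured in the same arrays and are no replicates of each other. Against unimpaired rats the CCT values were mixed (6 of 8 below 0, against 52.6% of all genes). Without the 3 least similar arrays 4 of 8 were below 0 there, against 42% of all genes. The unimpaired minus young values, 3 of 8 below 0 as deposited, became 8 of 8 below 0 when arrays were centred on their medians. That scaling also took all genes to 57.5% below 0, against 41.7% as deposited. Cct3, Cct4 and Cct5 differed between impaired and young rats by -0.05 ± 0.04, -0.06 ± 0.04 and -0.04 ± 0.05.

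Among the mitochondrial chaperones, Hspd1 (Hsp60) ranged from 11.37 through 11.43 to 11.52 in impaired, 11.45 through 11.51 to 11.58 in unimpaired and 11.42 through 11.54 to 11.63 in young arrays. All 8 impaired arrays lay below the young median, at a difference of -0.08 ± 0.03 (limma adjusted p = 0.226). Hspe1 (Hsp10), read from the opposite strand of the same stretch of DNA, differed by 0.01 ± 0.06 (adjusted p = 0.972). The Hsp70 of mitochondria, Hspa9 (mortalin), differed by 0.04 ± 0.04, and its J-protein Dnaja3 by -0.21 ± 0.17 with 1 very low impaired array.

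As a whole the set leaned to lower values in impaired rats by small amounts. The median impaired minus young difference of the 45 measured members was -0.046, against 0.0079 over all genes, and 33 of 45 values (73.3%) were below 0, against 46.4% of all genes. At an unadjusted p under 0.05 there were 12 members, against 16.5% of all genes: 11 (24.4%) were lower, against 5.98% of all genes, and 1 was higher, against 10.6%. The 11 were Hspa5, Pdia4, Pdia6, Dnajb11, Calr, Hsph1, Ahsa1, Stip1, Dnajb1, Cct6a and Hspd1, and the 1 was Dnajb2. Without the 3 least similar arrays the median was -0.026, against 0.025 over all genes, and 6 members were lower at that level, 4 of them of the ER, against 503 of 9076 genes. With arrays centred on their medians the median was -0.063, against -0.0094 over all genes, and 13 members were lower, against 819 of 9076 genes. The CA1 pyramidal markers had a median impaired minus young difference of -0.13, and 2 of the 7 tested were lower at that level, Neurod6 (-0.17, adjusted p = 0.0942) and Pou3f1 (-0.19, adjusted p = 0.214); their part in the members' values was not tested. The members were chosen with earlier results of these data known, so these counts describe the set and carry no test.

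Between unimpaired and young rats 0 members were called by limma, against 0.76% of all genes in either direction, 0.617% higher and 0.143% lower. At an unadjusted p under 0.05 there were 2 members (4.44%), Dnajb2 higher and Dnajb11 lower, against 9.84% of all genes, 6.8% higher and 3.04% lower. The unimpaired minus young median of the members was 0.0036, against 0.015 over all genes, and was -0.028 with centred arrays, against -0.016 over all genes, so the scaling moved both by about the same amount. Over all aged rats against young, 0 members were called by limma, against 3.71% of all genes in either direction, 3.09% higher and 0.628% lower. At an unadjusted p under 0.05 there were 7 members (15.6%), against 15.3% of all genes: Hspa5, Pdia4, Pdia6, Dnajb11, Calr and Cct6a lower, against 4.74% of all genes, and Dnajb2 higher, against 10.6%. The smallest adjusted p there was 0.0726, for Pdia4 at -0.30 ± 0.09. These comparisons share the young arrays.

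**Figure D4:**
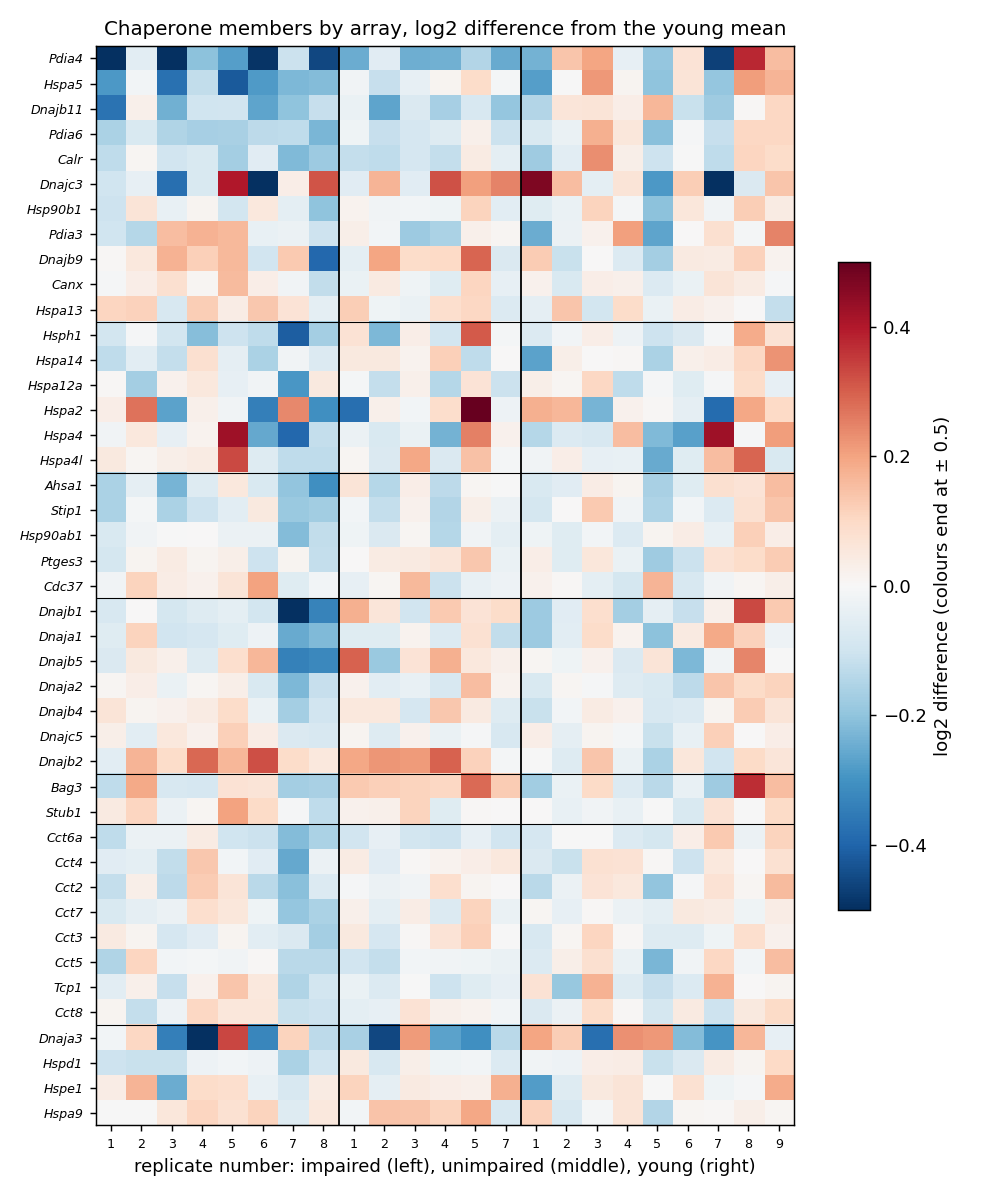
Difference of each array from the young mean (log2; blue lower, red higher, colours end at 0.5 either way) for 43 members in rows by role and 23 arrays in columns, impaired left, unimpaired middle, young right. Hyou1 and Dnajb6, which vary most within groups, are left out. The top 5 rows (Pdia4, Hspa5, Dnajb11, Pdia6 and Calr) are blue in most impaired arrays, and impaired replicates 7 and 8 are blue down most of the cytosolic and CCT rows.

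The comparison closest to the learning outcome sets impaired against unimpaired rats of the same age. No member was called by limma, and 0% of all genes were. Values below 0 were nonetheless frequent among members (37 of 45, or 82.2%, against 52.6% of all genes), with a median of -0.050 against -0.0052. At an unadjusted p under 0.05 there were 4 members (8.89%), against 6.93% of all genes: 4 were lower, against 3.75%, and 0 higher, against 3.18%.

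Hspa5 had the smallest p of these 4, with a difference of -0.23 ± 0.08 (limma unadjusted p = 0.00635, adjusted p = 0.562), and 7 of the 8 impaired arrays lay below every unimpaired array. For Dnajb1 the difference was -0.23 ± 0.08 (adjusted p = 0.619), and -0.13 without the 3 least similar arrays. Hsph1 differed by -0.17 ± 0.07 (adjusted p = 0.651), and -0.12 without them. For Bag3, with 7 impaired arrays below every unimpaired array, it was -0.18 ± 0.07 (adjusted p = 0.651), and -0.14 without them. Without these 3 arrays 29 of 45 members (64.4%) were below 0, against 42% of all genes, 1 was lower at that level, against 264 of 9076 genes, and the median was -0.024, against 0.016 over all genes. Leaving out unimpaired replicate 5 alone brought the median to -0.030. The CA1 pyramidal markers also had a median difference of -0.20 between impaired and unimpaired rats, with 0 of 7 called by limma. At an unadjusted p under 0.05 Pou3f1 (-0.28), Wfs1 (-0.36), Neurod6 (-0.14) and Fibcd1 (-0.20) were lower, against 3.75% of all genes. Slc17a7 differed the other way, by 0.14. The part of these markers in the members' values was not tested.

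The wider pathways were read from 8 lists with 129 genes, of which 109 were measured, and limma called 0 of them in any of the 4 comparisons. At an unadjusted p under 0.05, 5 were higher (4.59%) and 4 lower (3.67%) in impaired than in young rats, against 10.6% and 5.98% of all genes. In unimpaired against young rats 4 were higher (3.67%) and 1 lower (0.917%), against 6.8% and 3.04%, and in impaired against unimpaired rats 2 were higher (1.83%) and 5 lower (4.59%), against 3.18% and 3.75%. All of these shares but the last were under those of all genes. The UPR list (14 measured) had a median impaired minus young difference of 0.0080, with 2 genes lower. They were Xbp1, the UPR transcription factor (-0.18 ± 0.06, adjusted p = 0.109), and Creld2, a secreted UPR target (-0.29 ± 0.11, adjusted p = 0.182). Eif2ak3 (PERK), the sensor kinase, differed by 0.24 ± 0.07 between unimpaired and young rats (adjusted p = 0.122) and by -0.22 ± 0.07 between impaired and unimpaired rats (adjusted p = 0.562).

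In ER-associated degradation, the route that carries failed proteins out to the proteasome, Erlec1 differed by 0.13 ± 0.04 between impaired and young rats (limma adjusted p = 0.122), while the membrane proteins Derl1 and Derl2 differed by -0.15 ± 0.05 and -0.24 ± 0.09 between impaired and unimpaired rats (adjusted p = 0.617 and 0.638). Of the other ER folding proteins, the oxidase Ero1a differed by 0.09 ± 0.04 over all aged rats (adjusted p = 0.224). Among other Hsp90 partners, Chordc1 gave the lowest adjusted p of all lists in impaired against young rats, at -0.32 ± 0.10 (adjusted p = 0.0916), and Ruvbl2 differed by -0.09 ± 0.03 over all aged rats (adjusted p = 0.193). Pdcl3, of the CCT partners, differed by 0.18 ± 0.08 between unimpaired and young rats (adjusted p = 0.446). The heat shock factor list had 3 measured genes, Hsf1 among them at -0.17 ± 0.10 in impaired rats (adjusted p = 0.42). The lists of other Hsp70 partners and of other mitochondrial chaperones held 0 and 1 genes at an unadjusted p under 0.05 in that comparison.

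Apart from group differences, 4 of 8 ER chaperones paired with Hspa5 varied with it from array to array. Each array's deviation from its group mean was compared over 23 arrays for 15 pairs, with 2-sided permutation tests within groups and adjustment over the 15 pairs. Hspa5 followed Calr most closely (Pearson r = 0.82, permutation p = 2e-05, adjusted 0.0003; Spearman rho = 0.73, permutation p = 0.0007, adjusted 0.00277), and r was 0.86 without the 2 arrays farthest from the Hspa5 median. Only 1 other gene of the 9076 tested followed Hspa5 more closely: Manf, a secreted UPR target, at r = 0.84.

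Pdia6 followed next among members (r = 0.77, permutation p = 0.00015, adjusted 0.00112; rho = 0.68, permutation p = 0.0018; r = 0.83 without the 2 farthest arrays). For Pdia4 r was 0.73 (permutation p = 0.00064, adjusted 0.00225; rho = 0.74, permutation p = 0.00055; r = 0.78 without those arrays). For Hsp90b1, whose mean did not differ between groups by the test, r was 0.67 (permutation p = 0.00158, adjusted 0.00395; rho = 0.68, permutation p = 0.00179; r = 0.69 without those arrays). Dnajb11 missed the threshold (r = 0.44, adjusted permutation p = 0.0757) but passed it without those arrays (r = 0.51, adjusted 0.0478), and Hyou1, Dnajc3 and Dnajb9 had r of 0.23, 0.069 and 0.0055. Among all genes by r with Hspa5, Calr, Pdia6 and Pdia4 ranked 2, 4 and 10. Sdf2l1, an ER protein of the UPR list, ranked 11 (r = 0.73). Genes outside the members and the pathway lists ranked among them, such as Cryab at 3 (r = 0.78), Mrps6 at 5 (r = 0.75) and Shisa7 at 7 (r = 0.74).

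Within groups, r with Hspa5 in impaired rats was 0.51 for Calr, 0.38 for Pdia6, 0.61 for Pdia4 and 0.42 for Hsp90b1. In unimpaired rats the same values were 0.77, 0.80, -0.32 and 0.67, and in young rats 0.94, 0.89, 0.89 and 0.82. Of the 15 pairs, 0 passed the adjusted threshold by exact permutation within impaired and within unimpaired rats and 8 passed within young rats, these 4 among them. The differences in r between groups were not tested.

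**Figure D5:**
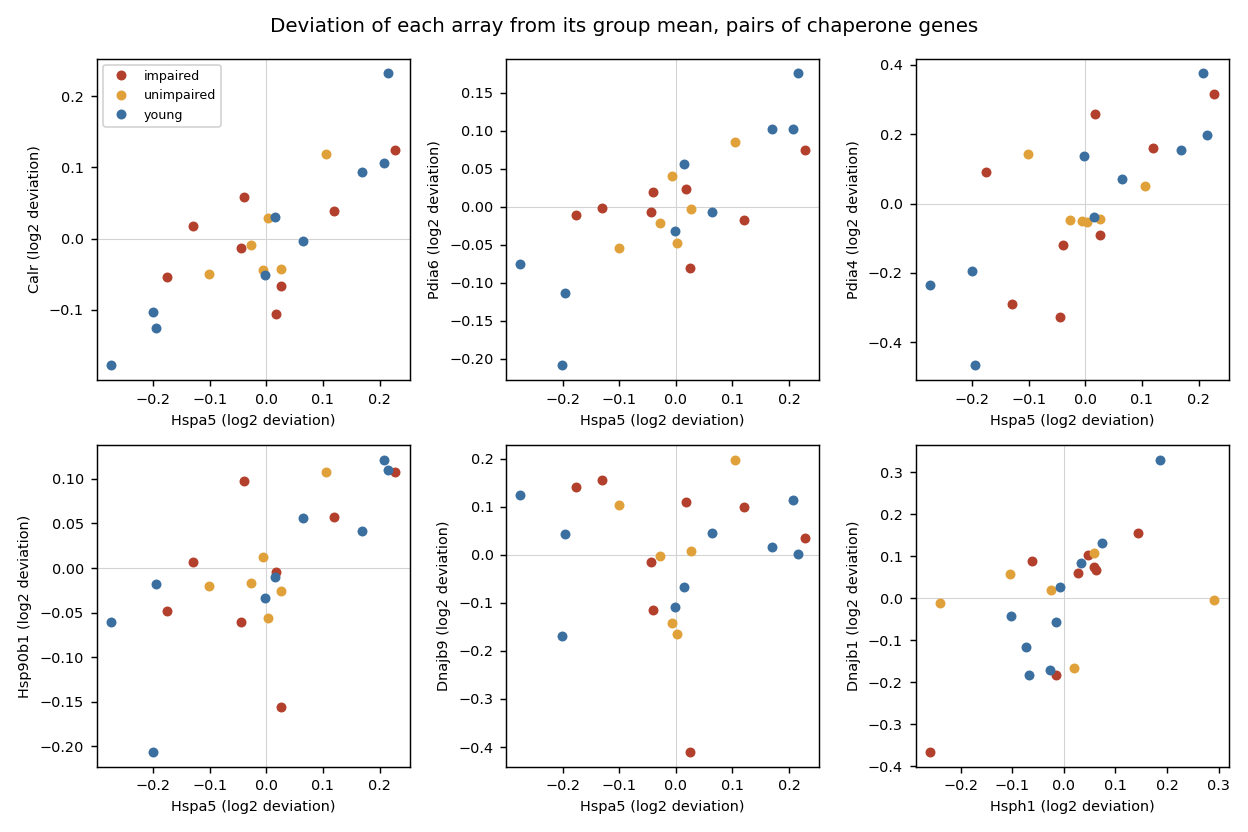
Deviation of each array from its group mean (log2) for Hspa5 on the x axis against Calr, Pdia6, Pdia4, Hsp90b1 and Dnajb9, and for Hsph1 against Dnajb1; 1 point per array, coloured by group. Calr rises with Hspa5 (r = 0.82) while Dnajb9 shows no slope (r = 0.0055).

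In the cytosol, Hsph1 varied with Stip1 (r = 0.63, permutation p = 0.00065, adjusted 0.00225; rho = 0.73, permutation p = 0.00024), Dnaja1 (r = 0.60, permutation p = 0.00075, adjusted 0.00225; rho = 0.60) and Dnajb1 (r = 0.59, permutation p = 0.00228, adjusted 0.00489; rho = 0.67). Ahsa1 followed at r = 0.53 (adjusted permutation p = 0.0182), and Hspd1 and the ER member Hspa5 at 0.45 and 0.39 (each adjusted 0.046), both short of the threshold by rank. Such values were common among all genes: Stip1, Dnaja1 and Dnajb1 ranked 181, 273 and 336 by r with Hsph1, and 7.02%, 13.2% and 18.5% of genes had an r as high as those of Ahsa1, Hspd1 and Hspa5. Without the 2 farthest arrays r was 0.63 for Stip1, 0.48 for Dnaja1, 0.58 for Dnajb1 and 0.43 for Hspd1, which then missed the threshold (adjusted permutation p = 0.0983). With arrays centred on their medians 2 of 7 Hsph1 pairs passed, against 6 of 7 as deposited, while the Hspa5 pairs kept 4 of 8. Hsph1 and Dnajb1 had r = 0.86 in impaired, -0.028 in unimpaired and 0.90 in young rats. In rank among all genes the closest member to Hsph1 was the J-protein Dnaja2, at rank 10 (r = 0.77), and the closest gene of all was Srprb (r = 0.86), a subunit of the receptor that docks ribosomes at the ER.

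Several members had more than 1 probe set, and some probe sets disagreed. The 45 measured members had 65 single-symbol probe sets, 13 members had another one past the filter, and of these 16 other probe sets 7 followed the used one with r over 0.5 across the 23 arrays. For Hspa9 a dimmer probe set ranged from 5.79 through 7.04 to 7.69 in impaired arrays, 5.40 through 5.93 to 6.63 in unimpaired arrays and 4.94 through 5.64 to 7.01 in young arrays. Its impaired minus young difference was 0.98 ± 0.28 (limma adjusted p = 0.0595 over probe sets), whereas the used probe set and a further bright one gave 0.04 ± 0.04 and 0.06 ± 0.05. With the mean of its probe sets Hspa9 was called higher in impaired rats (0.36, limma adjusted p = 0.0297), against 0.04 for the used one alone. The other probe set of Cct6a ran against the used one (r = -0.48), with an impaired minus young difference of 0.16 ± 0.36. For Hsp90ab1 the other probe set (r = 0.41 with the used one) gave an impaired minus young difference of -0.12 ± 0.05. Its limma adjusted p over probe sets was 0.214, and the used one gave -0.06 ± 0.04. Between impaired and unimpaired rats these 2 probe sets gave -0.12 ± 0.05 and -0.01 ± 0.04.

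Finally, 2 members varied widely within groups. Hyou1 (GRP170), the exchange factor of BiP, ranged from 5.35 through 6.62 to 8.80 in impaired arrays, 5.85 through 6.95 to 8.36 in unimpaired arrays and 5.15 through 6.15 to 8.42 in young arrays. Its spread within groups was wider than that of 99.9% of genes, and its other probe set was dim, with medians of 3.02, 2.98 and 2.99 in impaired, unimpaired and young arrays. Dnajb6, a J-protein known for holding back polyglutamine aggregates, ranged from 9.95 through 10.36 to 11.95 in impaired, 10.18 through 11.50 to 11.94 in unimpaired and 10.19 through 10.44 to 11.92 in young arrays. The 23 arrays fell on both sides of a gap between 10.82 and 11.17, with 2 of 8 impaired, 5 of 6 unimpaired and 3 of 9 young arrays above it. The impaired minus unimpaired difference was -0.70 ± 0.36 (limma adjusted p = 0.73). Of 2 further probe sets annotated with Dnajb6 and other genes, 1 stayed between 7.59 and 8.14 in all 23 arrays and the other read the opposite way: impaired replicates 2 and 3, at 11.52 and 11.95 on the used probe set, read 8.31 and 8.40 on this other one, and unimpaired replicate 2, at 10.18 on the used one, read 9.55.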

How the data were processed

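An Affymetrix rat genome array was run for each biological replicate, per the labels. The deposited table holds log2 signals from GCRMA, per the submitters' processing notes, a method by which the authors corrected background, normalized arrays and combined probes. The sources used here do not give its version. No further scaling was applied. Of 24 columns, that of aged unimpaired replicate 8 was blank and 23 were used. The column of young replicate 9, which stands among aged unimpaired columns, was kept as labelled.

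Of 31099 probe sets, 20832 had 1 gene symbol, 436 several and 9831 none. Each gene took its single-symbol probe set of highest mean, kept with log2 over 4 in at least 6 arrays. Group means were fitted with limma 3.58.1 (R 4.3.3), with Benjamini-Hochberg adjustment over 9076 genes and calls at an adjusted p under 0.05. The aged mean weights impaired and unimpaired rats by 8 and 6 arrays. A log2 difference had a median SE of 0.0582 (aged minus young), 0.0662 (impaired minus young), 0.0718 (unimpaired minus young) and 0.0736 (impaired minus unimpaired), and the number of arrays limits the precision. No batch was given. One promoter sequence is not reported here. Correlations used 100000 permutations within groups (exact within 1 group) in Python 3.11.15. The code was tested on simulated data.

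Members and gene lists were chosen with earlier results of these data known. Members were singled out by a rule. It took those called in any comparison and the brightest of each role. It also took the 2 of each role with the smallest p in aged against young and in impaired against unimpaired. Values over arrays were given for part of these. For Hspa12a, Hspa14, Stip1, Ptges3, Dnaja1, Stub1, Cct3, Cct4, Cct5, Hspe1 and the used probe set of Hspa9, only differences were given. Of the pathway lists, the 3 genes with the smallest p in each comparison were named. Creld2, Hsf1, Manf, Sdf2l1, Hyou1 and the probe sets that disagreed were chosen after their values were seen. Replicate numbers did not pair the rats: over 20 same-numbered pairs of arrays the correlation of deviations had a median of -0.0519, and 1 pair exceeded 0.1.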

Additional observations from a re-analysis of the deposited data

Results flagged for a closer look

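In 135 sets of values (45 members in 3 groups), 1 array lay apart from its group by Dixon's criterion at the 95% level 5 times, and chance alone gives about 1 in 20 sets. Hspa4l, an Hsp110 relative, read 9.37 in impaired replicate 5, and the next impaired array read 9.09. Dnaja3, the mitochondrial J-protein, read 7.28 in impaired replicate 4, below the next at 8.35. Cct2 read 10.7 in unimpaired replicate 4, against 10.63 for the next unimpaired array. Bag3 read 7.44 in unimpaired replicate 5, against 7.29 for the next. Cdc37, the kinase-specific partner of Hsp90, read 10.46 in young replicate 5, against 10.32 for the next young array.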

How the results depend on the processing

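The 2 members called in impaired against young rats became 0 with no filter on dim probe sets, with every probe set tested on its own, with the replicate number as a block and with only the groups compared in the fit. They stayed at 2 with array weights, where Pdia6 took the place of Hspa5 (adjusted p = 0.0534). With a filter of log2 over 6 in at least 6 arrays both were kept. They became 3 with RNA quality as a covariate, with the trend and robust options of limma and without the 3 least similar arrays (Hspa5, Pdia4 and Pdia6). With the mean of probe sets they also became 3 (Hspa5, Pdia4 and Hspa9, the last called higher). They became 4 with arrays centred on their medians and with quantile normalization (Ahsa1, Hspa5, Pdia4 and Pdia6) and at an adjusted p under 0.10 (Dnajb11, Hspa5, Pdia4 and Pdia6). The 0 members called in aged against young rats became 2 with centred arrays, with quantile normalization and with RNA quality as a covariate (Pdia4 and Pdia6), 1 with array weights (Pdia4) and 3 at an adjusted p under 0.10. Leaving out 1 array at a time gave 0 to 3 members in impaired against young and 0 to 2 in aged against young rats. In the second, Dnajb2 was called without impaired replicate 1 or unimpaired replicate 7, Pdia6 without young replicate 5, and Dnajb11 and Pdia4 without young replicate 7. Unimpaired against young and impaired against unimpaired stayed at 0 in every fit run. With the replicate block, which pairs arrays that share only a number, Hspa5 differed by -0.22 (limma adjusted p = 0.169) between impaired and young rats. Pdia4 differed by -0.35 (adjusted p = 0.133). The fit without young replicate 9, the only array with that number, gave the same 2 differences (limma adjusted p = 0.0954 and 0.0834). Why the adjusted p was higher with the block was not tested. The direction of the Hspa5 and Pdia4 differences between impaired and young rats held in every fit run. The medians over members as deposited were all smaller in size than the spread between arrays, 0.057. Moving by less than this spread therefore says nothing about their stability. The impaired minus young median was larger in size than it, at -0.063, both with centred arrays and with quantile normalization. The impaired minus unimpaired median of -0.050 was -0.024 without the 3 least similar arrays, the aged minus young median of -0.024 was -0.048 with centred arrays, and the unimpaired minus young median of 0.0036 was -0.028 with centred arrays. Over all genes, calls in impaired against young rats were 280 higher and 65 lower as deposited, 293 and 149 with centred arrays and 289 and 154 with quantile normalization. In aged against young they were 280 and 57, 241 and 136, and 270 and 143, and in unimpaired against young 56 and 13, 50 and 30, and 51 and 24. Of 15 correlated pairs, 10 passed as deposited, 6 with centred arrays, and 0 within impaired and 0 within unimpaired rats alone. Within unimpaired rats Hsph1 with Dnajb1 had r = -0.028 and Hspa5 with Pdia4 r = -0.32. The fit without the 3 least similar arrays was added after the data were seen. Differences near the SE of 0.0662 could not be detected with this number of arrays, and Hspa8 and Hsp90aa1 were not analysed here.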
